A study of Danio rerio with 6 samples.

Results

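Amacrine cells are the inhibitory interneurons of the inner retina. Most release GABA or glycine onto bipolar, ganglion and other amacrine cells. They arise from retinal progenitors through Pax6 and basic helix-loop-helix factors, and AP-2 and Bar-class homeodomain factors then set their identity. Several of these genes also act in horizontal cells, the inhibitory interneurons of the outer retina that contact the photoreceptors directly. The 10 genes described here were taken by symbol as markers of amacrine cells. They are pax6a, pax6b, tfap2a, tfap2b, tfap2c, barhl2, neurod4, gad2, slc32a1 and slc6a1b, and all 10 were found among the 14781 genes of the table and passed the filter on low values.

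RNA came from fluorescent cells that were sorted from eyes of zebrafish larvae aged 5 days. All larvae used carried thrb:tdTomato, a red reporter driven by regulatory sequence of thrb, the thyroid hormone receptor gene that marks red cones. There were 3 WT libraries and 3 libraries labelled samd7-/-, named by that label throughout, whose parents were both homozygous for the stl888 allele of samd7, a Polycomb-family gene of photoreceptors. Each library pooled 20 to 25 larvae of 1 clutch, and only some larvae of a clutch were genotyped. That alone does not make the libraries of a group separate clutches. The genotypes had different parents, so genotype and parental line cannot be told apart.

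The libraries held between 13435570 and 20369266 recovered reads. The sorted population had strong red-cone transcripts in every library, and the red-cone opsin opn1lw2 had between 1479085 and 1693387 normalized counts in WT and between 500401 and 1010645 in the samd7-/- libraries. The transcript of samd7 itself was 7683 ± 896 normalized counts in WT and 24329 ± 543 in the samd7-/- libraries (SD, n = 3 in each, as for all levels below). How the stl888 allele affects this transcript is not given in the sources used here, so the level does not check the genotype. Library samd7-/- 3 differed most within its group (chi-square per degree of freedom of 176 and 164, against 101 between libraries 1 and 2), and results that change without it are given with and without it below. Normalized counts are read counts divided by 1 size factor per library. They are not divided by gene length, so levels are compared between libraries and not between genes.

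Of the 10 marker genes 4 rose in the samd7-/- libraries and 0 fell. These were the AP-2 factor gene tfap2b, both pax6 copies and barhl2, which increased between 1.92-fold and 3.005-fold. The test was limma on log2(normalized count + 1) with Benjamini-Hochberg adjustment over all 9886 tested genes, and a gene was called changed at an adjusted p under 0.05. In that fit 5.17% of all tested genes were called, 1.26% as higher and 3.9% as lower. The log2 difference was above 0 for 9 of the 10 markers, with slc32a1 the exception, and for 52.4% of all tested genes. The median difference was 0.97 over the 10 markers and 0.05 over all tested genes. In bulk samples, more cells of a type and more RNA per cell cannot be told apart.

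The 10 genes together made up 0.109%, 0.0848% and 0.107% of all normalized counts in WT libraries 1 to 3. In samd7-/- libraries 1 to 3 their share was 0.171%, 0.208% and 0.152%. The groups did not overlap in this share, which does not depend on the scaling between libraries. It does depend on the levels of all other genes. The 10 most abundant genes of a library held 27.1% to 28.6% of its counts in WT and 20.0% to 26.2% in the samd7-/- libraries. A lower share of such genes raises the share of the rest. The summed level of the 10 markers was 15640 to 20449 normalized counts in WT and 26040 to 29464 in the samd7-/- libraries. The summed level of the factors was 9651 to 12482 normalized counts in WT and 19016 to 22867 in the samd7-/- libraries. That of the GABA genes was 5989 to 9973 in WT and 6445 to 8039 in the samd7-/- libraries, so the groups overlapped. In WT library 1, the highest of these sums, slc32a1 alone gave 7169 of the 9973. Of the 3 genes gad2 and slc6a1b had a positive log2 difference and slc32a1 a negative one.

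**Figure D1:**
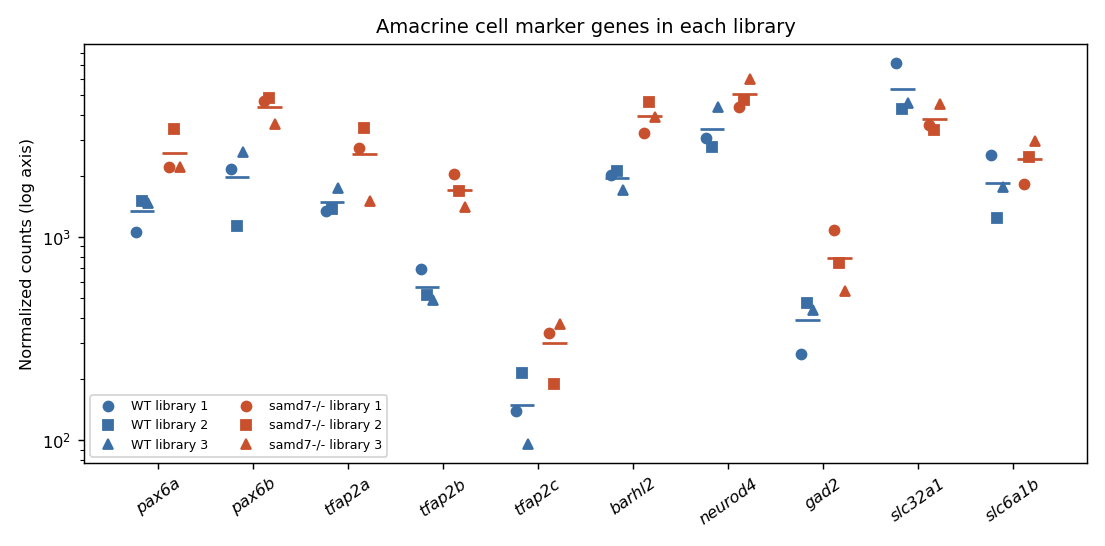
Normalized counts (log axis) of the 10 amacrine cell marker genes in each of the 6 libraries, with WT in blue and samd7-/- in orange, a symbol per library and a line at the mean of each group. The groups are apart for pax6a, pax6b, tfap2b, barhl2 and gad2, and overlap for the other 5 genes.

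The Pax6 proteins are paired-domain and homeodomain factors that retinal progenitors use and that amacrine, horizontal and ganglion cells keep. The level of pax6a was 1059.6, 1510.4 and 1464 normalized counts in WT libraries 1 to 3, and 2199.6, 3384 and 2219.8 in samd7-/- libraries 1 to 3. Every samd7-/- library was above every WT library, and samd7-/- library 2 was the highest. The means were 1345 ± 248 and 2601 ± 678, and the gene rose by 0.94 on the log2 scale (SE 0.24, limma adjusted p = 0.0363). This call held without samd7-/- library 3 and was lost when any other library was left out, with an adjusted p up to 0.151, without samd7-/- library 2. It was also lost with no filter on low values (adjusted p = 0.0565).

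The paralog pax6b had 2163, 1137 and 2624 in WT libraries 1 to 3, and 4660.1, 4827 and 3594 in the samd7-/- libraries. WT library 2 was lowest, and the groups again did not overlap. The means were 1974 ± 761 and 4360.4 ± 669, and the log2 change was 1.22 (SE 0.27, limma adjusted p = 0.0194). Without WT library 2 the log2 difference was 0.86 and the adjusted p 0.0786. The call was also lost without samd7-/- library 1 (adjusted p = 0.0779) and without samd7-/- library 2 (adjusted p = 0.0669). For pax6a and pax6b edgeR gave adjusted p-values of 0.0554 and 0.0520, just above 0.05, and DESeq2 gave 0.00530 and 0.00158.

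AP-2 factors direct amacrine and horizontal cell development in the mouse, where the genes for AP-2 alpha and AP-2 beta act together. The zebrafish gene tfap2b had the largest difference of the 10. It was at 695, 518 and 493 normalized counts in WT libraries 1 to 3 and at 2040.2, 1677 and 1411 in the samd7-/- libraries. The lowest samd7-/- library was thus above the highest WT library by more than the whole range of WT. Means were 568 ± 110.4 and 1709 ± 316, and the rise was 1.59 on the log2 scale (SE 0.26, limma adjusted p = 0.00262), or 3.005-fold with a 95% interval from 2.04-fold to 4.43-fold. With 1 library left out the log2 difference was between 1.45 and 1.74, and the gene was called in each of these 6 fits.

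The related tfap2a was at 1339.8, 1379 and 1741 in WT, and at 2744, 3430.3 and 1504 in the samd7-/- libraries. Library samd7-/- 3 lay inside the WT range, and the other 2 lay above it. Means were 1487 ± 221 and 2559 ± 976, with a log2 difference of 0.71 (SE 0.28, 95% interval 0.12 to 1.31) that did not pass the test (limma adjusted p = 0.171). Without samd7-/- library 3 the log2 difference was 1.05 and the gene was called (limma adjusted p = 0.0119). In that fit 5 of the 10 markers were called, as were 5.8% of all tested genes.

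The third gene of this family, tfap2c, was the shallowest of the 10, with 72 to 428 reads per library. It had 139.5, 215 and 95.8 normalized counts in WT and 338, 189.7 and 373 in the samd7-/- libraries. Library samd7-/- 2 lay below WT library 2, and the groups overlapped. Its log2 difference was 1.01 (SE 0.51, 95% interval -0.07 to 2.10, limma adjusted p = 0.300). The interval held both no difference and one as large as that of tfap2b. A further member of the family, tfap2e, had at most 22.4 normalized counts, and tfap2d was at 0 in all libraries but 2, with 1.65 and 120.3 in samd7-/- libraries 1 and 2.

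The homeodomain factor gene barhl2, whose mouse counterpart acts in amacrine and ganglion cells, had the smallest coefficient of variation within WT of the 10 markers. Its levels were 2028, 2117 and 1708 in WT and 3263, 4629 and 3901 in the samd7-/- libraries. All 3 samd7-/- libraries were above all WT libraries, and the spread within each group was smaller than the gap between the means. The means of 1951 ± 215 and 3931 ± 684 differed by 1.002 on the log2 scale (SE 0.20, limma adjusted p = 0.0102), a 2.003-fold rise with a 95% interval from 1.49-fold to 2.699-fold. The gene was called in each fit with 1 library left out, with a log2 difference between 0.88 and 1.13.

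The basic helix-loop-helix gene neurod4 is used by precursors of amacrine cells and of other retinal neurons, photoreceptors among them, in the mouse. It had 3051, 2776 and 4357 in WT and 4350.4, 4729 and 6013 in the samd7-/- libraries. WT library 3 was just above samd7-/- library 1, and apart from that pair the groups were separate. The log2 difference was 0.58 (SE 0.21, 95% interval 0.13 to 1.04) and did not pass (limma adjusted p = 0.147). Without samd7-/- library 3 it was 0.45, with a 95% interval from -0.01 to 0.90 (limma adjusted p = 0.283). With all 6 libraries and scaling by library totals the difference was 0.81 and passed (limma adjusted p = 0.0286). That scaling moved the median difference of all genes up by 0.23 on the log2 scale, and the difference of neurod4 also by 0.23.

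The 3 remaining markers make, load and recover GABA. The enzyme gene gad2, for the smaller glutamate decarboxylase that makes GABA, had 265, 471 and 438 in WT and 1083, 749 and 541 in the samd7-/- libraries. The groups did not overlap, but the samd7-/- libraries were widely spread, with library 1 highest. Means were 391 ± 110.8 and 791 ± 273, with a log2 difference of 1.0007 (SE 0.36, 95% interval 0.22 to 1.78) that did not pass the test (limma adjusted p = 0.142). It was not called with edgeR (adjusted p = 0.159), with DESeq2 (adjusted p = 0.0816) or with any 1 library left out (adjusted p from 0.0751 to 0.407).

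The vesicular transporter gene slc32a1, whose product loads GABA and glycine into synaptic vesicles, had the only negative difference of the 10. It had 7169, 4279 and 4537 in WT and 3539, 3366 and 4525 in the samd7-/- libraries. WT library 1 was far above the rest, and WT libraries 2 and 3 were close to samd7-/- library 3. The log2 difference was -0.46 (SE 0.22, 95% interval -0.93 to 0.02, limma adjusted p = 0.281). With 1 library left out it was between -0.59, without WT library 2, and -0.22, without WT library 1 (limma adjusted p = 0.641). Without samd7-/- library 3 it was -0.59, with a 95% interval from -1.06 to -0.11 (limma adjusted p = 0.164). The upper bound of the interval over all 6 libraries corresponds to a 1.01-fold level. A rise of the size of the 4 called markers thus lay outside that interval.

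The reuptake transporter gene slc6a1b, the counterpart of mammalian GAT-1, had 2539, 1239 and 1765 in WT and 1823, 2482 and 2972 in the samd7-/- libraries. The groups overlapped, with WT library 1 above samd7-/- libraries 1 and 2. The log2 difference was 0.43 (SE 0.27, 95% interval -0.16 to 1.01, limma adjusted p = 0.438). It was between 0.17, without WT library 2, and 0.68, without WT library 1.

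**Figure D2:**
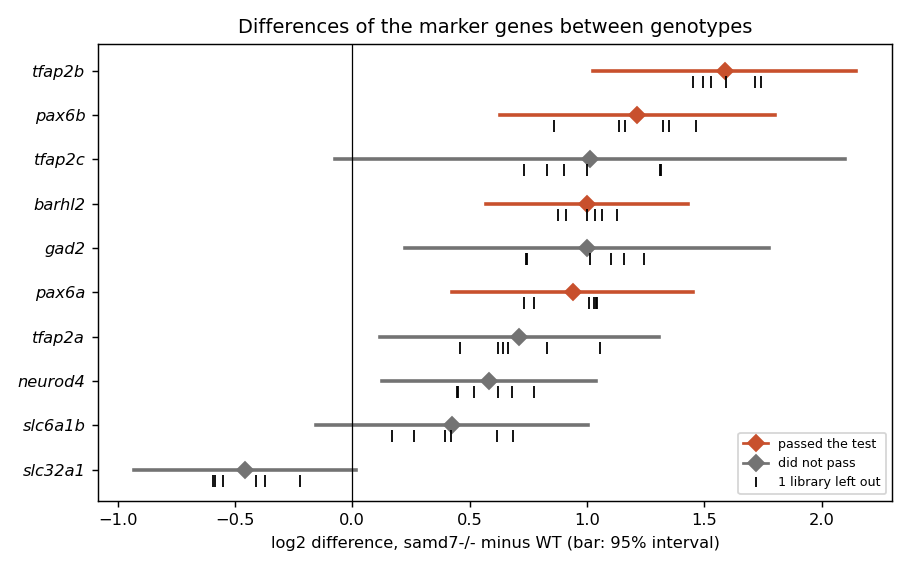
Difference of mean log2(normalized count + 1), samd7-/- minus WT, for each of the 10 marker genes, with its 95% interval from limma and tick marks for the 6 fits that leave out 1 library. The called genes tfap2b, pax6b, barhl2 and pax6a (orange) have intervals above 0, and slc32a1 is the only gene below 0.

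Groups without overlap were found for 5 of the 10 markers (the 4 called genes and gad2), all 5 higher in the samd7-/- libraries. Among all tested genes 12.1% were separated in that direction, 12.4% in the other and 24.5% in either. A limma p under 0.05 before adjustment was found for 7 markers, all of them above 0, and for 19.1% of all tested genes (9.3% with a positive difference). In the authors' deposited table the same 4 markers had an adjusted p under 0.05, as had 9.09% of the genes with a value there (3.44% as higher). With edgeR 2 markers (tfap2b and barhl2) and 3.83% of all tested genes were called, and with DESeq2 4 markers and 12.4% of the 7004 genes to which it gave an adjusted p. Scaling by library totals gave 5 markers against 6.75% of genes, 4.2% as higher. Limma with neither trend nor robust option called 0 markers and 0.273% of genes, with a p under 0.05 before adjustment for 5 markers. Without WT library 1, 2 or 3 the markers called numbered 3, 2 and 3, against 3.15%, 2.28% and 3.57% of all genes. Without samd7-/- library 1 or 2 they numbered 2 and 2, against 2.82% and 3.81%. The authors' deposited table gave log2 fold changes of 1.59 for tfap2b, 1.01 for barhl2, 1.14 for pax6b and 0.95 for pax6a.

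The markers did not follow a single pattern over the libraries. Library samd7-/- 2 was the highest of the 6 for 4 genes (pax6a, pax6b, tfap2a and barhl2), library 1 for 2 (tfap2b and gad2) and library 3 for 3 (tfap2c, slc6a1b and neurod4). The coefficient of variation within WT went from 11.0% for barhl2 to 40.0% for tfap2c, and within the samd7-/- libraries from 15.3% for pax6b to 38.1% for tfap2a. With each gene centred on its own mean, the most alike pair was pax6a and barhl2, whose log2 values differed by a root mean square of 0.24 over the 6 libraries. The least alike pair was tfap2b and slc32a1, with 1.06.

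Ratios of 2 genes within a library do not depend on scaling, and 3 such ratios, chosen after the values were seen, were compared. The ratio of gad2 to slc32a1 was 0.0369, 0.110 and 0.0965 in WT libraries 1 to 3 and 0.306, 0.222 and 0.1197 in samd7-/- libraries 1 to 3. It was higher in every samd7-/- library, though library 3 was close to WT library 2. The difference of the log2 ratio was 1.46 (two-sided exact permutation p = 0.1, the smallest that 3 against 3 libraries allow, adjusted 0.3 over the 3 ratios). This pair sets a marker already seen higher without overlap against the only marker with a negative difference. The choice favoured a separated ratio, and the adjustment does not cover it. For tfap2b to tfap2a the ratio was 0.392 ± 0.119 in WT and 0.723 ± 0.225 in the samd7-/- libraries, with overlap (exact permutation p = 0.2, adjusted 0.3). For pax6a to pax6b it was 0.792 ± 0.466 and 0.597 ± 0.116 (exact permutation p = 0.8). WT library 2 stood out there, with a ratio of 1.33 against 0.490 and 0.558 in the other WT libraries. The sources used here do not say how reads shared by paralogs were assigned, so the split between pax6a and pax6b is uncertain.

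**Figure D3:**
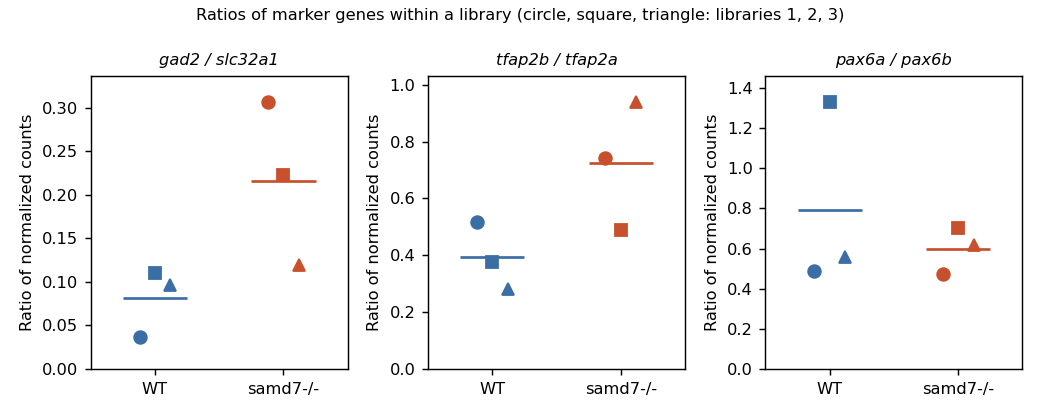
Ratios of the normalized counts of 2 marker genes within each library, with WT in blue and samd7-/- in orange, a symbol per library and a line at the mean of each group. The ratio of gad2 to slc32a1 is above all WT values in the 3 samd7-/- libraries, while the other ratios overlap.

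Of the wider lists of amacrine cell genes, 37 genes were tested and 3 were called, where 5.17% of all tested genes were. A further 22 transcription factor genes were found and 14 of them tested, of which isl1 rose and 0 fell (median log2 difference -0.02). Of the 14, 4 had a limma p under 0.05 before adjustment, as had 19.1% of all tested genes. The groups did not overlap for 3 higher and 1 lower of the 14, where 12.1% and 12.4% of all tested genes were so separated. Several of the 14 were at low levels, with an SE of up to 2.02, so this median is uncertain. The LIM-homeodomain gene isl1, used by amacrine, bipolar and ganglion cells, went from 2714 ± 293 to 4581 ± 561 (log2 change 0.75, SE 0.19, limma adjusted p = 0.0331). Its call was lost with any 1 library left out other than samd7-/- library 3 (adjusted p up to 0.1305, without samd7-/- library 1). The basic helix-loop-helix gene neurod1, of photoreceptors and amacrine cells, was at 28466 ± 11519 in WT and 31900 ± 8402 (log2 difference 0.23, adjusted p = 0.764). The homeodomain gene meis1b was at 3925 ± 300.1 and 3998 ± 451 (log2 difference 0.02, adjusted p = 0.963). For neurod1 the difference was -0.17 without WT library 1, and for meis1b it was -0.03 without WT library 2, -0.04 without samd7-/- library 2 and -0.01 without samd7-/- library 3. The progenitor factor ptf1a, needed for amacrine and horizontal cells, was at 134 ± 103 and 135 ± 89.2, with 36.6 to 253 normalized counts in single libraries.

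Of the other genes that supply GABA and glycine 5 of 8 were tested and 0 passed with limma (1 had a p under 0.05 before adjustment). With edgeR 0 passed and with DESeq2 1 did. The gene for the larger glutamate decarboxylase, gad1b, was at 6760.3 ± 1761 in WT and 8083 ± 1133 in the samd7-/- libraries, and the groups overlapped (log2 difference 0.28, SE 0.20, limma adjusted p = 0.509). The GABA transaminase gene abat, which breaks GABA down, was at 1306 ± 299 and 2163 ± 189 without overlap (log2 difference 0.75, limma adjusted p = 0.0775). It was the gene that DESeq2 called (adjusted p = 0.0347), and it also passed with scaling by library totals (adjusted p = 0.0180). The succinic semialdehyde dehydrogenase gene aldh5a1 was at 152 ± 29.6 and 88.2 ± 74.0 (log2 difference -1.68, adjusted p = 0.439), and without samd7-/- library 3, which held 6 reads of it, the difference was -0.22. The glycine transporter genes slc6a9, a glycinergic amacrine marker, and slc6a5 had at most 22.9 and 3.30 normalized counts in any library.

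The receptors on which GABA and glycine act included the only wider amacrine-list genes that fell. Which cells of the sorted samples, red cones or others, these receptor transcripts came from was not tested. Of 32 receptor and anchor symbols 18 were found, 12 were tested and 2 fell, with a median log2 difference of -0.09. Among all tested genes 3.9% were called as lower. Before adjustment 3 of the 12 had a limma p under 0.05, as had 19.1% of all tested genes. The groups did not overlap for 4 lower and 2 higher of the 12, where 12.4% and 12.1% of all tested genes were so separated. The GABA-A subunit gene gabra6a was at 16955, 11457 and 12267 in WT libraries 1 to 3 and at 4346, 3660 and 3531 in the samd7-/- libraries. All samd7-/- libraries were far below the lowest WT library, and the log2 change was -1.80 (SE 0.19, limma adjusted p = 9.175e-05). It was called in every fit with 1 library left out. The rho subunit gene gabrr2a was at 975 ± 110.4 and 1025 ± 310 (log2 difference 0.03, adjusted p = 0.972), with either sign when 1 library was left out.

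A list of amacrine subtype genes, which also held the general neuronal genes elavl3 and elavl4, was at low levels or at 0. Of 16 genes found, th, for the dopamine-making enzyme, slc18a3b, for a vesicular acetylcholine transporter, and the neuropeptide genes npy, sst1.1 and vip were at 0 in all 6 libraries. The remaining genes summed to 319 to 567 normalized counts in WT and to 577 to 1011 in the samd7-/- libraries. Without elavl3 and elavl4, which the ganglion cell list also holds, the sums were 213 to 438 and 287 to 687, which overlapped. Of 6 tested, 0 passed with limma, edgeR or DESeq2, and 0 had a limma p under 0.05 before adjustment. The calcium-binding protein gene calb2b was at 135 ± 31.1 and 237 ± 87.3, and elavl3, for a neuronal RNA-binding protein, at 127 ± 19.1 and 248 ± 35.04. The reelin adaptor gene dab1a was at 47.3 ± 76.7 and 137 ± 119, with 0 to 255 normalized counts in single libraries. The groups did not overlap for elavl3, whose 95% interval of the log2 difference ran from -0.07 to 2.01 (limma adjusted p = 0.302). They overlapped for calb2b and dab1a.

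Of the 10 markers 6 also belong to a list of horizontal cell markers (pax6a, pax6b, tfap2a, tfap2b, gad2 and slc32a1) and 2 to one of ganglion cells (barhl2 and pax6a). Of the 6 on the horizontal list 3 were called with limma, where 5.17% of all tested genes were. The gene barhl2, which is not on the horizontal list, was also called. Of the 3 on neither list (tfap2c, slc6a1b and neurod4) 0 were called with limma, edgeR or DESeq2. Of these, neurod4 was the 1 whose limma p was under 0.05 before adjustment. The log2 difference of tfap2c was 1.01 (SE 0.51), close to that of the called barhl2 (1.002, SE 0.20). On the horizontal list tfap2a and gad2 were not called, and slc32a1 had a negative difference. The 11 other horizontal cell genes, all of them tested, had a median log2 difference of 0.63, with 2 that rose and 0 that fell. Among all tested genes 1.26% were called as higher and 3.9% as lower. The homeodomain gene onecut1, a regulator of horizontal cells, rose from 731 ± 272 to 1742 ± 233 (log2 change 1.31, SE 0.28, limma adjusted p = 0.0155). The connexin gene cx52.9, for a gap junction protein of horizontal cells, rose from 1525 ± 100.4 to 2783 ± 735 (log2 change 0.84, SE 0.22, limma adjusted p = 0.0465). The call of onecut1 was lost without WT library 2, WT library 3 or samd7-/- library 1 (adjusted p up to 0.0760). That of cx52.9 was lost without any 1 library other than samd7-/- library 2 (adjusted p up to 0.146), and with edgeR (adjusted p = 0.0576) or no filter on low values (adjusted p = 0.0700). Summed over the 11 genes, the level was 15326 to 18534 in WT and 22758 to 27266 in the samd7-/- libraries, without overlap and with none of the 11 at 0.

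Marker lists of other cells differed between the same groups of libraries. The log2 difference was above 0 for 12 of 12 tested genes of dividing cells, 11 of 12 bipolar genes and 8 of 10 Müller glia genes. Outside the 10 markers it was above 0 for 10 of 11 horizontal and 9 of 11 ganglion cell genes. For rods and for red cones it was above 0 for 1 of 9, and among all tested genes for 52.4%. Summed levels without overlap, higher in the samd7-/- libraries, were found for 14 bipolar genes (3433 to 4266 against 5540 to 6716). Of these isl1 alone was called, and without it the sums were 769 to 1274 and 1116 to 1764, which overlapped. Sums higher without overlap were also found for 16 ganglion cell genes outside the 10 markers (1700 to 1954 against 2425 to 2972, 0 called with limma, 1 with a p under 0.05 before adjustment). Of these, gap43, nefma and nefmb were at 0 throughout. For 11 Müller glia genes the sums were 32405 to 41962 and 50383 to 81329, and 1 of 10 tested rose. Of 12 genes of dividing cells 3 rose, where 1.26% of all tested genes were called as higher, and their sum was 11471 to 14620 against 21653 to 22634. Of 7 pigment epithelium genes 5 were tested, and rgra fell. The sum of the 7 genes was 1532 to 2628 in WT and 626 to 1178 in the samd7-/- libraries. Without rgra it became 79.96 to 474 and 152 to 462, with overlap. Of the 5 tested, 3 had a positive difference (median 1.42), at low levels. The 9 rod genes summed to 16200, 74034 and 88559 in WT libraries 1 to 3. In samd7-/- libraries 1 to 3 they summed to 17347, 17303 and 67869, so the groups overlapped. Their median log2 difference was -0.99, with 0 called with limma and 2 with a p under 0.05 before adjustment. The 9 red-cone genes summed to 3404989 to 3591550 in WT and to 906885 to 1583420, and 5 of them fell while the opsin gene opn1lw1 rose (log2 change 3.29, limma adjusted p = 0.0459). The part of these cells in the differences of the amacrine markers was not tested.

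**Figure D4:**
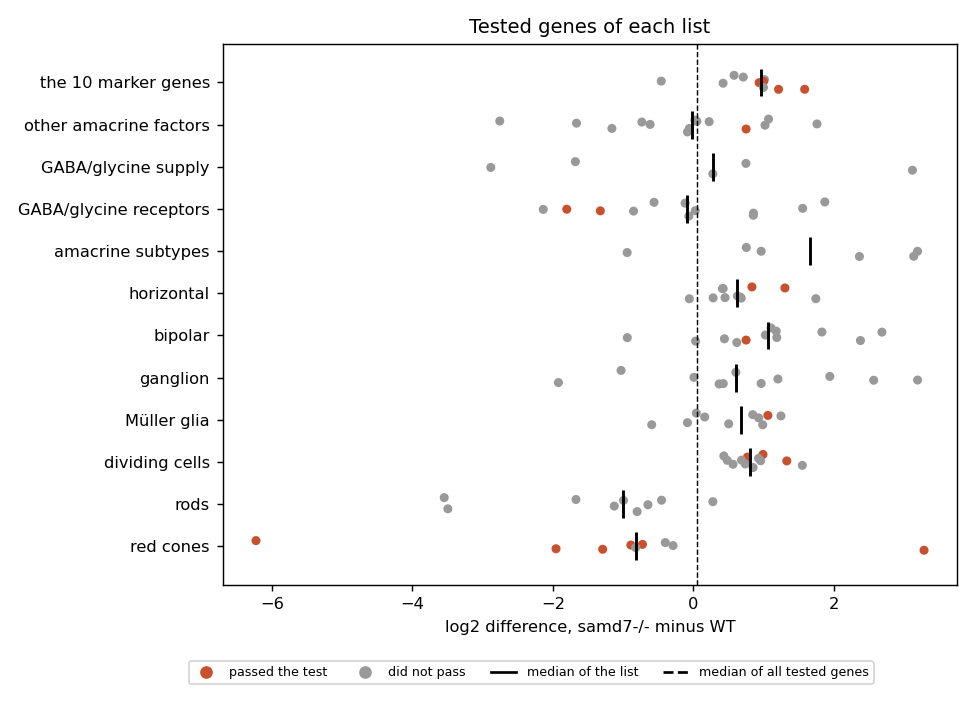
Log2 difference, samd7-/- minus WT, of every tested gene of each list, with genes that passed the test in orange, the median of each list as a black bar and the median of all tested genes as a dashed line. Lists other than the first leave out the 10 marker genes, whose median is 0.97. The medians of the other lists run from -0.99 for rods to 1.67 for amacrine subtypes. Those of subtypes, pigment epithelium (1.42, not drawn) and bipolar cells (1.07) are above that of the markers. Most genes of these 3 lists were at low levels, and single differences had an SE of up to 2.43, 2.47 and 2.45. Among the markers the SE was at most 0.51, so these medians are far less certain.

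The tested genes whose levels over the 6 libraries were most like those of tfap2b, the marker with the smallest adjusted p, were haus6, samd7, cdc6, mef2bnb and rnaseh2c. Likeness was the root mean square difference of log2 values centred on each gene's mean, and it ran from 0.15 to 0.21. Of these, samd7 was called (log2 change 1.67, limma adjusted p = 3.35e-05), and the other 4 were not, with WT means between 27.8 and 171 normalized counts. Such a measure favours genes with a log2 difference close to that of tfap2b (1.59). The differences of the genes named here ran from 1.29 to 1.77. A link between tfap2b and samd7 was therefore not tested.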

How the data were processed

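RNA sequencing of 6 libraries was used. The deposited library columns hold a signal, read counts that the authors divided by 1 size factor per library: dividing by the value of 1 read gave whole numbers, within 0.01 read, for 100% of nonzero entries, so reads were recovered. The submitters' processing notes name HTSeq 0.9.1, STAR 2.7.2b, Trim Galore 0.6.1, R 4.1.3, DESeq2 1.34.0 and the danRer10 build. The sources used here do not give annotation, strand setting or treatment of shared reads. No coordinates or sequences are given. The authors' deposited log2 fold changes and adjusted p-values are quoted only where named.

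Genes reaching 10 normalized counts in 3 or more libraries were fitted with limma 3.58.1 (R 4.3.3) on log2(value + 1). Genotype was the only term, with a mean-variance trend and the robust option. For low genes, above all those at 0 in some libraries, the log2 difference can depart from the ratio of the means. For dab1a that ratio was 2.90 and the log2 difference 3.14. Alternatives were edgeR 4.0.16 (quasi-likelihood, TMM) and DESeq2 1.42.0 on recovered reads, other added values and filters, library totals, a replicate block and leaving out each library. Limma and edgeR were tested on simulated data whose changes were larger than those of the called markers. That test does not cover changes of their size. The labels give 10000 to 25000 cells, 300 pg of input RNA and RNA integrity numbers of 7.4 to 8.4, the same for every library. They also give 14 amplification cycles for cDNA and 15 for the library. No molecular identifiers are described, so reads cannot be taken as separate molecules, which matters most for genes with few reads. The members, lists and tests were chosen with earlier results of these data known. 1 wider-list gene past the threshold is counted but not reported here. The text names the 10 markers, the other wider-list and horizontal genes past the threshold and the 3 with the highest mean per wider list. It also names the 5 genes most like the top marker. The genes ptf1a, foxn4, bhlhe22, meis2a, tfap2d, tfap2e, slc6a5, slc6a9 and genes at 0 were added after their values were seen. List symbols were matched by symbol or older symbol.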

Additional observations from a re-analysis of the deposited data

How the results depend on the processing

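The direction of all 10 markers was the same in all 15 alternatives. Direction could not differ in those that changed only the filter, the limma options or the replicate block, which leave the log2 difference unchanged. The calls of tfap2b and barhl2 held in 14 of 15, the exception being limma with neither trend nor robust option, where 0 markers and 0 genes of the wider lists were called (5 markers and 10 wider-list genes had a p under 0.05 before adjustment) and 27 of all genes, 10 higher and 17 lower. With no filter on low values 3 markers and 399 genes were called. With edgeR 2 markers and 379 genes were called, and with DESeq2 4 markers and 870 genes, 325 of them higher. Scaling by library totals gave 5 markers and 415 genes higher against 252 lower, in place of 125 and 386. With 1 library left out the count of markers called was 2 to 5, that of wider-list genes 2 to 3, and that of all genes 225 to 573 (40 to 125 higher, 185 to 448 lower). The log2 differences were then -0.17 to 0.47 for neurod1, -0.0416 to 0.12 for meis1b and -0.15 to 0.30 for gabrr2a. The cause of these shifts was not tested. Replicate numbers showed no sign of pairing the libraries (correlations of same-numbered deviations of 0.05, -0.03 and 0.01), which does not exclude a pairing. With the replicate block 4 markers, 2 wider-list genes and 431 genes were called. There isl1 was lost (limma adjusted p = 0.0511), and of the horizontal genes cx52.9 was lost (limma adjusted p = 0.0622). The gene with the fewest reads, tfap2c, had 72 to 428 per library.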
